A study of Mus musculus with 9 samples.

Results

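The Hox genes were followed in adipocyte precursors from mouse inguinal white adipose tissue, the subcutaneous fat depot of the groin and hind limb. The members were the 39 rows of the count table whose symbol is Hox, a cluster letter (a to d) and a paralog number, of 55359 rows in all. Of these, 35 had a count in at least 1 library and 29 had enough counts to be tested. RNA was sequenced from 9 libraries, 3 of cells that were not induced (day 0), 3 after 4 days and 3 after 8 days of beige adipocyte differentiation. Beige adipocytes are fat cells of white depots that can burn fuel for heat. Day 4 and day 8 cells had received an induction medium with dexamethasone, a glucocorticoid; 3-isobutyl-1-methylxanthine, a phosphodiesterase inhibitor; indomethacin; insulin; 3,3′,5-triiodo-L-thyronine, a thyroid hormone; and rosiglitazone, a PPARγ agonist. After 2 days they were kept in medium without dexamethasone, 3-isobutyl-1-methylxanthine and indomethacin. All 9 libraries were made from detergent lysates after centrifugation, so RNA held in nuclei can be under-represented. The sources used here do not say whether replicates came from separate animals or cultures, so p-values measure the spread between these libraries, which may be technical.

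Hox genes encode homeodomain transcription factors that set position along the body axis. In the mouse they lie in 4 clusters, HoxA on chromosome 6, HoxB on chromosome 11, HoxC on chromosome 15 and HoxD on chromosome 2. Low paralog numbers lie at the 3′ end of a cluster and act toward the head, and high numbers lie at the 5′ end and act toward the tail. Cells keep much of this code in the adult, and fat depots are known to differ in the Hox genes they express. Hox proteins bind DNA together with TALE homeodomain cofactors of the Pbx, Meis and Pknox families. Polycomb complexes hold Hox genes silent and complexes of the MLL family keep them active. The clusters also encode microRNAs of the miR-10 and miR-196 families and long noncoding RNAs.

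Sequences of the cluster microRNAs are shown because rows of their host loci are described with the HoxB cluster. They were taken from RefSeq (GRCm38.p6), with the seed, bases 2 to 8, in capitals.
miR-196a-5p: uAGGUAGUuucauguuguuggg
miR-196b-5p: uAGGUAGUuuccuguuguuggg
miR-10a-5p: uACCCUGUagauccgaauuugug
miR-10b-5p: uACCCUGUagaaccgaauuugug
The miR-196 pair shares one seed and the miR-10 pair another. The 7-base complement of the miR-196 seed, ACTACCT, was found in the annotated 3′ UTR of 9 of 39 Hox genes (23.1%), against 1375 of 21007 genes (6.55%). Stretches of 22 bases are shown for Hoxb8, the best known target of miR-196, and for Hoxc8, Hoxa7, Hoxa9 and Hoxb7, which other work has named as targets. They are in DNA letters, with capitals where they match the complement of miR-196a-5p.
Hoxb8: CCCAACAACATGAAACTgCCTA
Hoxc8: CaCtcacAacTctAACTACCTg
Hoxa7: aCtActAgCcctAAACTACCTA
Hoxa9: CaaAAggAaAgaAAACTACCTt
Hoxb7: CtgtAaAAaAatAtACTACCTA
The stretch shown for Hoxb8 is the one most like that complement, and for the others it is the best that holds the 7-base complement. The Hoxb8 stretch matched at 21 of 22 bases and held no exact copy of the 7-base complement. The stretches of Hoxa7, Hoxa9 and Hoxb7 each matched at 14 bases and that of Hoxc8 at 12. Outside Hoxb8, the best stretches of Hox genes without the 7-base complement matched at 9 (Hoxd11) to 15 bases (Hoxd8). Hoxa7 held 4 copies of the 7-base complement and Hoxc8 held 2. These are matches of letters, and no binding was measured.

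Promoter sequences are shown for 3 consecutive genes of HoxA, Hoxa6, Hoxa7 and Hoxa9. They were chosen because Hoxa6 fell while the next genes toward the 5′ end, Hoxa7 and Hoxa9, rose at day 4 (below). They are from RefSeq (GRCm38.p6), run from 250 bases before to 50 after the annotated start on the minus strand, and have CG dinucleotides in capitals. Hoxa6 is at chr6:52208623-52208922, Hoxa7 at chr6:52218524-52218823 and Hoxa9 at chr6:52227321-52227620.
Hoxa6: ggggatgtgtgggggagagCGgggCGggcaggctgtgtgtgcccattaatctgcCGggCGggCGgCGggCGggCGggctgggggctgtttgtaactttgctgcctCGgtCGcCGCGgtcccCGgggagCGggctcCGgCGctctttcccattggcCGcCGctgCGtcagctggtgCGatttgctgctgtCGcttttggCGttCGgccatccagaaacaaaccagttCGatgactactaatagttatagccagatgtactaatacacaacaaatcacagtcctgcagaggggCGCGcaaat
Hoxa7: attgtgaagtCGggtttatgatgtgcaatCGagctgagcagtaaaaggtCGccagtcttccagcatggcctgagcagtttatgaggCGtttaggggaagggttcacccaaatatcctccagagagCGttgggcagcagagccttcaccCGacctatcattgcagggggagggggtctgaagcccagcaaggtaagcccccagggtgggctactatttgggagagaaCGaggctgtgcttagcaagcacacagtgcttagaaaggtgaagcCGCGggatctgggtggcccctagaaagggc
Hoxa9: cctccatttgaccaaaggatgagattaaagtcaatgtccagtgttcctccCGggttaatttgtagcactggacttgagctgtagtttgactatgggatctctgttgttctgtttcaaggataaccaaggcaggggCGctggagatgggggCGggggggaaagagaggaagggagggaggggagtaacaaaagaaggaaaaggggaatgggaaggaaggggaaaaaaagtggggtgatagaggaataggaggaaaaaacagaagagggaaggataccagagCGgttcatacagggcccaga
The Hoxa6 promoter held 26 CG dinucleotides, that of Hoxa7 held 9 and that of Hoxa9 held 4. That of Hoxa5, on the other side of Hoxa6, held 29. Hoxa5 did not pass at day 4 (log2 fold change -0.19, adjusted p = 0.632, edgeR quasi-likelihood F-test). In other clusters, the promoter of Hoxc4 held 9 and that of Hoxd8 held 6, and both genes were lower at day 4 (log2 fold change -0.76 and -0.95). A link between CG content and direction of change was not tested. The table held 24 promoters for 22 of the Hox genes, with a median of 14.5 CG dinucleotides (range 4 to 45), against a median of 7 over 32851 promoters of the same length. On either strand, the CCAAT motif was present in 15 of the 24 Hox promoters and in 37.4% of all promoters. TATAAA was present in 4 of the 24 and in 13.6% of all, and TGATTNAT, a form of the Pbx and Hox motif, in 2 of the 24 and in 3.22% of all. A promoter can hold more than 1 of these motifs, and matches to different motifs may overlap.

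Total counts per library were 26387408 to 31474490 at day 0, 27222642 to 27692241 at day 4 and 30118228 to 31006682 at day 8. Values below are CPM, counts per 1e+06 counts of the scaled library size, and 3 counts in a library equal 0.0808 to 0.125 CPM. Day 4 replicate 2 stood apart from the other 2 day 4 libraries. Its summed adipocyte markers were 20689 CPM, against 37982 and 34019, and its summed adipose progenitor markers were 13481 CPM, against 7274 and 9679. In 17 of the 29 tested Hox genes (58.6%) it lay outside the other 2 day 4 libraries on the side of day 0, against 68.3% of all tested genes. Markers of the labelled cell type were high at day 0 and those of adipocytes at day 8. Summed progenitor markers were 25595 to 29872 CPM at day 0 and 4770 to 8148 CPM at day 8, while summed adipocyte markers went from 73.0 to 95.5 CPM at day 0 to 27613 to 30047 CPM at day 8. The progenitor markers did not all move alike. In the test described below, 3 of 9 tested were higher and 5 lower at day 4, against 28.6% and 26% of all genes. At day 8, 0 were higher and 6 lower, against 33.5% and 29.9%. Pdgfra, a receptor that defines fat precursors, was 175 to 191 CPM at day 0 and 38.0 to 53.6 CPM at day 8. In bulk RNA, fewer cells of a type and less RNA per cell cannot be told apart. Markers of other cells moved as well, and their part in the Hox results was not tested. Over days 0, 4 and 8, summed contractile markers were 4053 to 5368, 171 to 635 and 456 to 470 CPM, skeletal muscle markers 30.1 to 36.9, 1.58 to 6.17 and 7.15 to 10.8 CPM, and endothelial markers 11.9 to 16.0, 2.84 to 10.7 and 1.92 to 3.05 CPM. Those 3 sets were highest at day 0. Macrophage markers were 39.2 to 85.6, 44.1 to 66.5 and 9.44 to 46.1 CPM and mural markers 39.0 to 47.2, 71.1 to 85.2 and 51.4 to 62.1 CPM. Mesothelial markers were 16.2 to 21.7, 19.2 to 43.6 and 30.3 to 50.9 CPM and Schwann cell markers 7.06 to 10.8, 18.0 to 24.1 and 22.4 to 25.3 CPM. Lymphocyte markers summed to at most 4.85 CPM and mammary and skin epithelial markers to at most 1.01 CPM in any library, with Krt14 at 0 in all 9.

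The precursors expressed a central to posterior and mainly HoxC set of Hox genes, led by Hoxc10. Reads per gene were divided by the union exon length of the gene to compare levels between genes. At day 0 the order was Hoxc10 at 50.5 CPM per kb, Hoxb9 at 33.1, Hoxc6 at 22.5, Hoxc8 at 14 and Hoxc9 at 12.4, all in CPM per kb. The ranges over the 3 libraries of Hoxc10, Hoxb9 and Hoxc6 overlapped neither each other nor the next gene, whereas those of Hoxc8 and Hoxc9 overlapped. Hoxb7, Hoxa10 and Hoxb8 followed at 9.18, 8.91 and 7.33 CPM per kb. Hoxa11 was the lowest tested member at day 0, at 0.339 CPM per kb. Paralogs 5 to 8 were tested for all 11 of their members, paralogs 1 to 4 for 8 of 12 and paralogs 9 to 13 for 10 of 16.

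**Figure D1:**
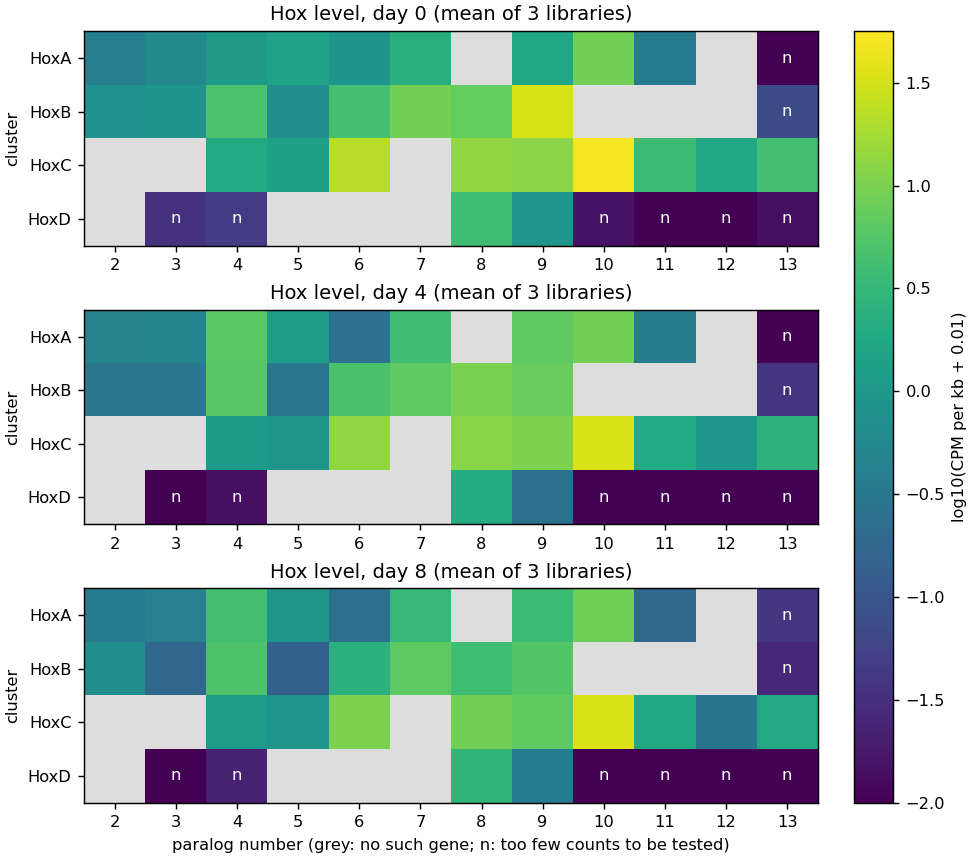
Mean level of each Hox gene of paralogs 2 to 13 in CPM per kb of exon (colour, log scale) at day 0, 4 and 8, with clusters in rows and paralog numbers in columns; n marks genes with too few counts to be tested and grey marks places with no gene. Hoxc10 is the highest on every day (50.5, 36.3 and 34.5 CPM per kb), and most of HoxD carries too few counts.

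The order was partly rearranged by day 8. Hoxc10 stayed first at 34.5 CPM per kb and Hoxc6 came second at 10.2 CPM per kb, and neither range overlapped the next gene. Hoxb9 went from rank 2 at day 0 to rank 7 at day 4 and at day 8. Hoxa4 went from rank 21 at day 0 to rank 10 at day 4 and rank 9 at day 8. Below rank 2 at day 8, Hoxc8 (8.98), Hoxa10 (8.47) and Hoxc9 (6.93 CPM per kb) were closely spaced. At day 4 only Hoxc10, at 36.3 CPM per kb, was apart from the next gene, Hoxc6 at 13.5 CPM per kb, among the first ranks.

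The HoxD cluster was nearly silent. Of its 9 members only Hoxd8 and Hoxd9 could be tested. Hoxd1, Hoxd11 and Hoxd12, and in HoxB Hoxb1, had 0 counts in all 9 libraries, which allows up to 0.0808 to 0.125 CPM in a library. Hoxd10 and Hoxd13 had 1 count each over all libraries, Hoxa13 had 6, Hoxd3 had 11, Hoxd4 had 15 and Hoxb13 had 23. All 11 counts of Hoxd3 were at day 0 (2, 2 and 7), and 11 of the 15 counts of Hoxd4 were at day 0. Much of the exon length of these neighbours overlaps other annotated genes on the same strand (62.3% of Hoxd3 and 52.3% of Hoxd4), so their counts are uncertain.

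The summed level of all Hox genes was lower on each later day. It was 456, 485 and 465 CPM at day 0 (469 ± 14.9, SD, n = 3), 347, 363 and 385 CPM at day 4 (365 ± 18.8, SD, n = 3) and 279, 293 and 281 CPM at day 8 (284 ± 7.58, SD, n = 3). The 3 days did not overlap. HoxC held the largest part of these reads on every day, with 53.2% ± 0.208 at day 0, 48.9% ± 3.74 at day 4 and 51.6% ± 1.10 at day 8 (SD, n = 3). At day 4 its part was 46.6% and 46.9% in replicates 1 and 3, below day 0, and 53.2% in replicate 2. The part of HoxA was 12.5% ± 0.223, 26.6% ± 4.48 and 25.6% ± 1.46, and that of HoxB 31.5% ± 0.184, 22.9% ± 1.15 and 19.7% ± 0.868 (SD, n = 3). HoxD held 2.76% ± 0.400, 1.66% ± 0.414 and 3.12% ± 0.618 (SD, n = 3). Day 4 replicate 2 had 21.4% of its Hox reads in HoxA, between the day 0 libraries and the other 2 day 4 libraries (28.7% and 29.6%). As summed CPM, HoxA went from 58.6 to 97.1 and 72.6 over days 0, 4 and 8, HoxB from 147.7 to 83.3 and 56.1, and HoxC from 249.4 to 178.3 and 146.7. These sums are relative and depend on the scaling of the libraries. The scaling factors were 1.17 to 1.18 at day 0, 0.881 to 0.996 at day 4 and 0.861 to 0.948 at day 8.

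**Figure D2:**
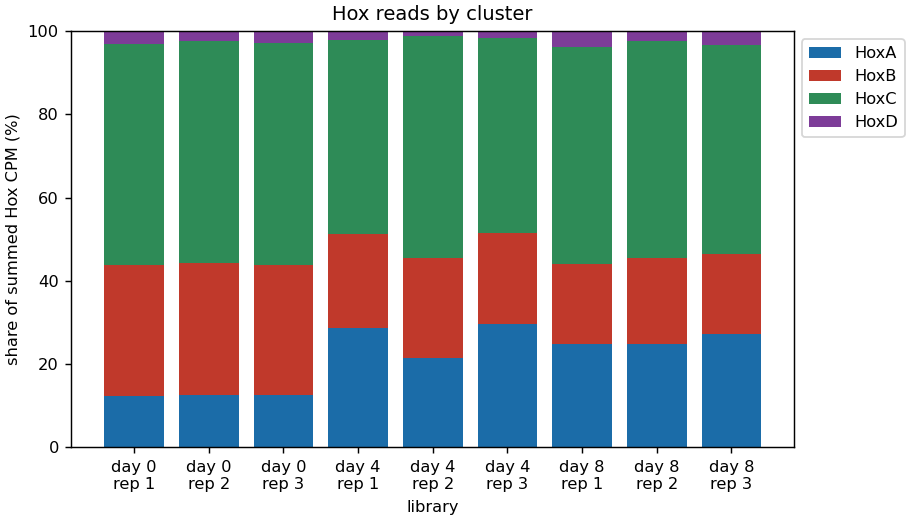
Share of the summed Hox CPM held by each cluster (%) in each of the 9 libraries. HoxA takes 12.5% on average at day 0 and 26.6% and 25.6% at day 4 and day 8, while HoxB goes from 31.5% to 22.9% and 19.7%.

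Each gene was tested with edgeR's quasi-likelihood F-test, two-sided, with Benjamini-Hochberg adjustment over all 14649 tested genes and a threshold of 0.05. Between day 0 and day 4, 15 of the 29 Hox genes changed (51.7%), against 54.6% of all genes tested, so the members changed about as often as genes in general. Of the 15, 3 rose (10.3%, against 28.6% of all genes) and 12 fell (41.4%, against 26%). The median log2 fold change of the 29 was -0.48, against -0.01 over all tested genes. Between day 0 and day 8, 19 changed (65.5%, against 63.4%), of which 2 rose (6.90%, against 33.5%) and 17 fell (58.6%, against 29.9%), with a median log2 fold change of -0.64 against 0.03. Between day 4 and day 8, 4 changed (13.8%, against 22.4%), with 1 higher (3.45%, against 11.7%) and 3 lower (10.3%, against 10.8%) and a median of -0.39 against 0.00. The comparisons with day 0 share the day 0 libraries. Scaling by total counts instead moved the median of all genes to -0.34 and -0.33 in the comparisons of day 4 and day 8 with day 0. The Hox split was then 2 higher and 17 lower at day 4 and 2 higher and 21 lower at day 8. Without day 4 replicate 2, 5 Hox genes were higher and 14 lower at day 4.

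**Figure D3:**
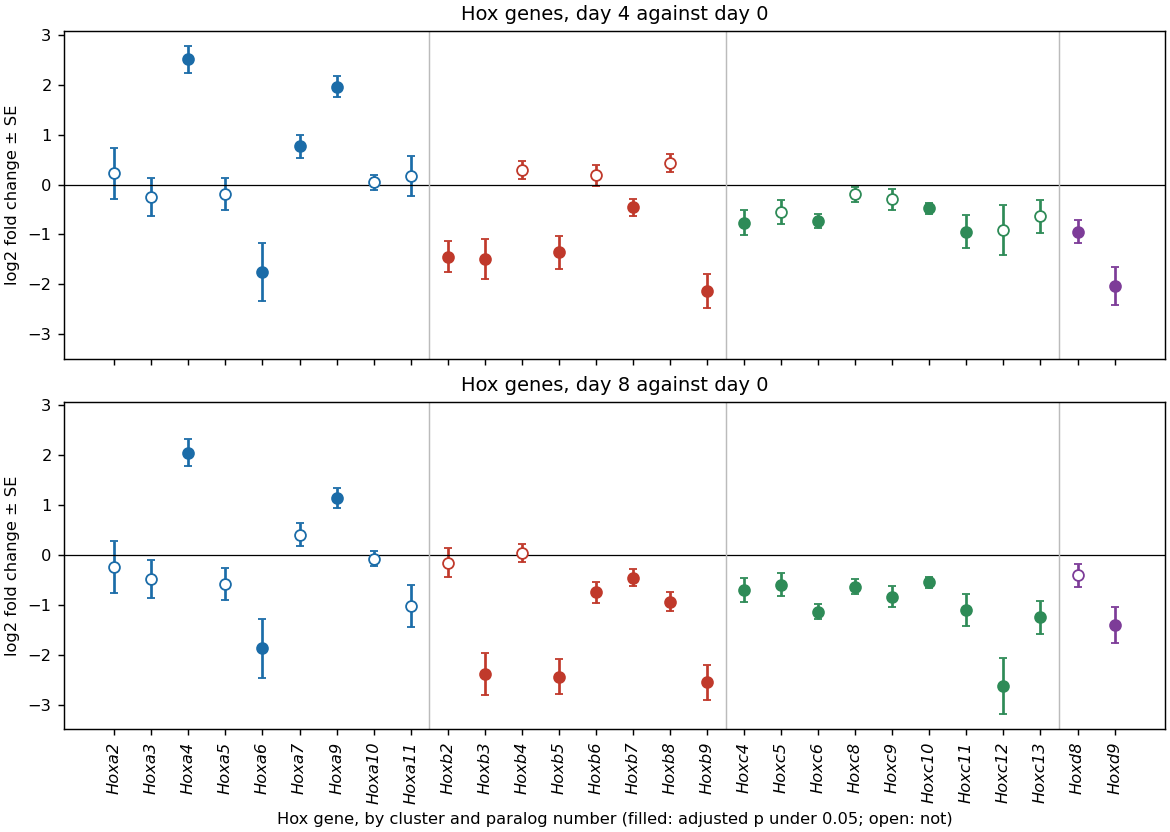
Log2 fold change ± SE of each tested Hox gene of paralogs 2 to 13, day 4 against day 0 (top) and day 8 against day 0 (bottom), ordered by cluster and paralog number, with filled points at adjusted p under 0.05. All 9 HoxC genes lie below 0 at day 8, while Hoxa4 and Hoxa9 lie above 0 on both days.

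By cluster, HoxC and HoxB fell and HoxA was mixed. At day 8 all 9 HoxC genes were lower than at day 0 (median log2 fold change -0.84), as were 6 of 8 tested HoxB genes (median -0.84), with none higher in either. In HoxA, 2 of 10 were higher and 1 lower (median -0.26), and in HoxD 1 of 2 was lower. At day 4, 3 HoxA genes were higher and 1 lower, 5 of 8 HoxB genes, 4 of 9 HoxC genes and both HoxD genes were lower, and none of these 3 clusters had a higher gene. By paralog number, 2 of 8 tested genes of paralogs 1 to 4 were lower at day 8 and 1 higher, against 8 of 11 lower and none higher for paralogs 5 to 8, and 7 of 10 lower and 1 higher for paralogs 9 to 13. Their median log2 fold changes were -0.26, -0.64 and -1.06. Over all tested genes, 29.9% were lower and 33.5% higher at day 8, and 26% and 28.6% at day 4. The lower share at day 8 was 100% in HoxC, 75% in HoxB and 10% in HoxA. It was 25% for paralogs 1 to 4, 72.7% for paralogs 5 to 8 and 70% for paralogs 9 to 13. The 30% of HoxA genes higher at day 4 and the 25% of paralogs 1 to 4 were near the shares of all genes. Clusters and paralog groups were not tested against each other.

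Hoxa4, Hoxa9 and Hoxa7 were the members that rose. Hoxa4 (ENSMUSG00000000942), a gene toward the anterior end of the cluster, was 1.67, 2.17 and 1.30 CPM at day 0, 9.60, 8.31 and 11.4 CPM at day 4 and 5.41, 8.06 and 7.85 CPM at day 8. Every day 4 and day 8 library lay above every day 0 library. It was 5.69-fold higher at day 4 (log2 fold change 2.51, SE 0.27, adjusted p = 2.61e-05) and 4.15-fold higher at day 8 (2.05, SE 0.26, adjusted p = 7.44e-05). Hoxa9 (ENSMUSG00000038227), a gene known for its role in blood progenitors and leukaemia, was 8.46, 9.81 and 9.94 CPM at day 0, 41.9, 24.5 and 43.3 CPM at day 4 and 20.1, 21.8 and 20.3 CPM at day 8. The day 4 libraries were the highest and the 3 days did not overlap. The increase was 3.88-fold at day 4 (log2 1.96, SE 0.21, adjusted p = 2.73e-05) and 2.20-fold at day 8 (1.14, SE 0.21, adjusted p = 0.000694). Hoxa9 fell between day 4 and day 8 by 0.82 on the log2 scale (SE 0.20, adjusted p = 0.0175). That fall missed the threshold without day 4 replicate 3 (adjusted p = 0.0705) and also on leaving out replicate 1 (0.0568) or 3 (0.0501) of day 8.

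Hoxa7 (ENSMUSG00000038236) passed the threshold at day 4 alone. It was 6.36, 6.77 and 7.10 CPM at day 0, 9.97, 10.2 and 14.3 CPM at day 4 and 9.92, 6.25 and 10.6 CPM at day 8. The day 4 libraries lay above day 0, and those of day 8 overlapped both. The increase was 1.70-fold at day 4 (log2 0.77, SE 0.23, adjusted p = 0.0171), and the value at day 8 was 0.41 (SE 0.23, adjusted p = 0.150). The day 4 call was lost with total-count scaling (adjusted p = 0.154) and without replicate 1 (0.0665) or 2 (0.0520) of day 0 or replicate 3 of day 4 (0.0816). The day 8 value passed without day 8 replicate 2 (adjusted p = 0.0294).

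Hoxa6 (ENSMUSG00000043219), which lies between Hoxa5 and Hoxa7, was the HoxA member that fell. It was 1.16, 0.583 and 0.503 CPM at day 0, 0.209, 0.363 and 0.0788 CPM at day 4 and 0.208, 0.151 and 0.245 CPM at day 8. All later libraries lay below day 0, at 2 to 43 counts per library over the series. The log2 fold change was -1.76 at day 4 (SE 0.58, adjusted p = 0.0258) and -1.87 at day 8 (SE 0.58, adjusted p = 0.0162). Without day 0 replicate 1 neither was called (adjusted p = 0.130 and 0.0880). The day 4 call was also lost without day 4 replicate 1 (0.0708) or replicate 3 (0.0956), and the day 8 call without day 8 replicate 2 (0.0575).

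Hoxa10 (ENSMUSG00000000938) is a posterior HoxA gene known for its part in the uterus and in patterning of the limb, and it was the highest member of the cluster at day 0. It was 27.3, 28.1 and 32.0 CPM at day 0, 28.5, 26.8 and 34.6 CPM at day 4 and 24.4, 29.3 and 29.5 CPM at day 8, and the days overlapped. The log2 fold change was 0.04 at day 4 (95% interval -0.28 to 0.36, adjusted p = 0.830) and -0.07 at day 8 (-0.40 to 0.25, adjusted p = 0.686). With total-count scaling the day 8 value was -0.43 (adjusted p = 0.0223). Hoxa3 was 3.49 ± 1.02, 2.94 ± 0.774 and 2.50 ± 1.11 CPM over the 3 days, and Hoxa5 was 2.73 ± 0.649, 2.39 ± 0.244 and 1.82 ± 0.592 CPM (SD, n = 3). Hoxa2 averaged 0.716, 0.841 and 0.606 CPM. None of these 3 passed on either day. With total-count scaling Hoxa5 passed at day 8 (log2 fold change -0.93, adjusted p = 0.0285). Hoxa11 was 0.970, 0.615 and 0.740 CPM at day 0, 0.626, 0.943 and 1.06 CPM at day 4 and 0.278, 0.414 and 0.456 CPM at day 8. Its day 8 libraries lay below all others, and its log2 fold change against day 0 was -1.02 (SE 0.42, adjusted p = 0.0541; 0.0150 with total-count scaling and 0.0492 in a fit of those days alone). Hoxa11 shares 35%, Hoxa3 25.4%, Hoxa7 20.4% and Hoxa4 16.0% of exon length with annotated genes on the opposite strand, and whether the counting used strand is not given in the sources used here.

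**Figure D4:**
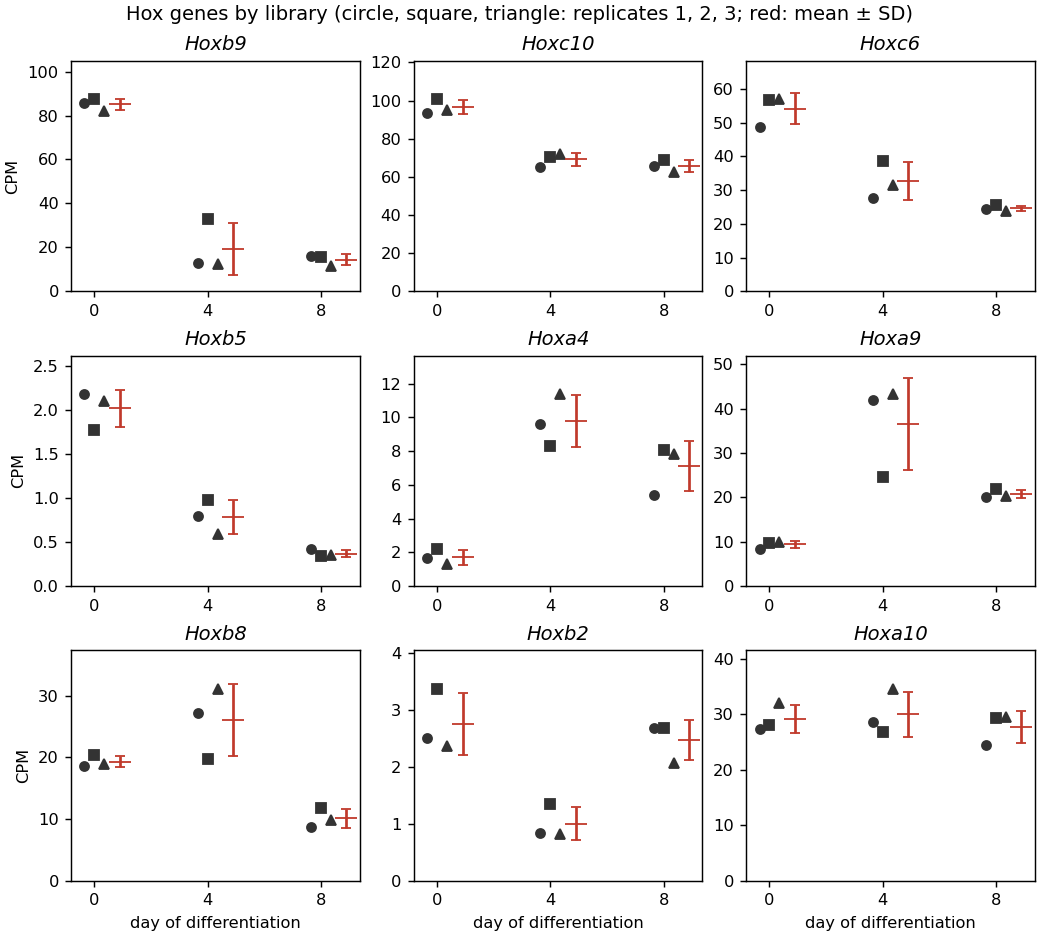
CPM of selected Hox genes by day, with 1 symbol per replicate and the mean ± SD in red. Hoxa4 and Hoxa9 are higher at day 4 and day 8 than at day 0, Hoxb9 is lower, and Hoxb9 of day 4 replicate 2 (32.9 CPM) lies above the other 2 day 4 libraries (12.9 and 12.2 CPM).

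Hoxb9, the second most abundant member at day 0 per length, fell steeply. Hoxb9 (ENSMUSG00000020875), the most 5′ of the closely packed HoxB genes, was 85.7, 87.3 and 82.2 CPM at day 0, 12.9, 32.9 and 12.2 CPM at day 4 and 16.3, 15.6 and 11.4 CPM at day 8. All later libraries lay below day 0, and day 4 replicate 2 was the highest of them. Hoxb9 was 4.39-fold lower at day 4 (log2 fold change -2.13, SE 0.34, adjusted p = 0.000389) and 5.89-fold lower at day 8 (-2.56, SE 0.34, adjusted p = 9.79e-05). Without day 4 replicate 2 the day 4 value was -2.76 (SE 0.17, adjusted p = 7.75e-08). Between day 4 and day 8 the difference was -0.42 (adjusted p = 0.373).

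**Figure D5:**
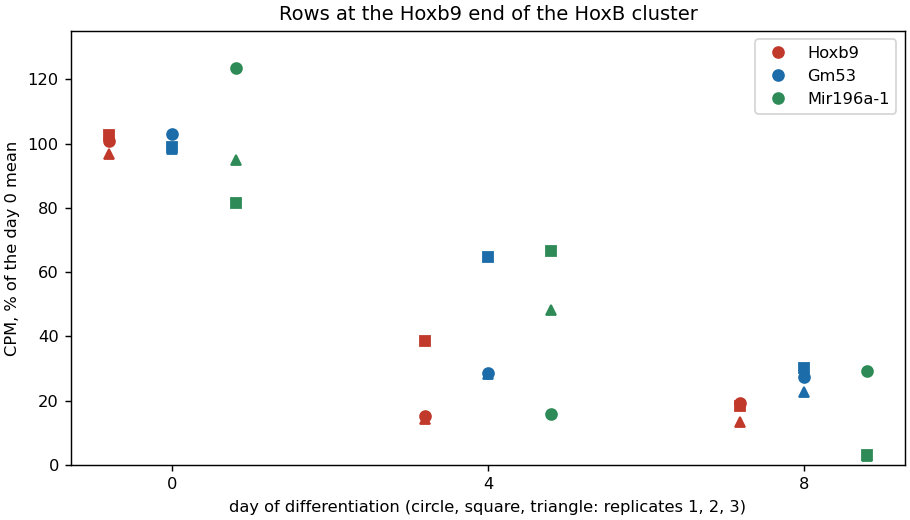
CPM of Hoxb9, Gm53 and the Mir196a-1 row as a percent of the day 0 mean of each, by day, with 1 symbol per replicate. At day 4 Hoxb9 stands at 15.2%, 38.7% and 14.4% and Gm53 at 28.5%, 64.7% and 28.3%, so day 4 replicate 2 is the highest in both.

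Of the 46 annotated genes inside the clusters that are not Hox genes, 29 were in the table and 11 were tested. Gm53 and the Mir196a-1 row, both next to Hoxb9 on the same strand, are described because of their values. Gm53 (ENSMUSG00000078706), a long noncoding RNA, was 27.6, 26.5 and 26.3 CPM at day 0, 7.64, 17.3 and 7.60 CPM at day 4 and 7.32, 8.06 and 6.10 CPM at day 8. It was lower at day 4 (log2 fold change -1.30, SE 0.29, adjusted p = 0.00338) and at day 8 (-1.90, SE 0.30, adjusted p = 0.000268). The Mir196a-1 row counts reads over the hairpin locus, not the mature microRNA shown above. It had 60, 33 and 42 counts at day 0, 5, 24 and 16 at day 4 and 11, 1 and 1 at day 8. The fitted log2 change was -1.19 at day 4 (SE 0.67, adjusted p = 0.158) and -3.06 at day 8 (SE 0.77, adjusted p = 0.00529). The other cluster microRNA rows had too few counts to be tested: Mir196a-2 had 5 counts, Mir10a and Mir615 had 1 each, and Mir10b and Mir196b had 0. Among the members whose stretches are shown above, Hoxb8, Hoxc8 and Hoxb7 were lower at day 8, Hoxa9 was higher and Hoxa7 did not pass. Other members also hold the 7-base complement of the seed. Of these, Hoxa4 was higher at day 8, Hoxb6 was lower and Hoxa5 did not pass. A link between the microRNA and these genes was not tested.

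Hoxb3 and Hoxb5, anterior and central HoxB genes, fell on both days. Hoxb3 (ENSMUSG00000048763) was 3.59, 3.69 and 3.64 CPM at day 0, 0.876, 1.52 and 1.46 CPM at day 4 and 0.833, 0.979 and 0.280 CPM at day 8. Its log2 fold change was -1.49 at day 4 (SE 0.40, adjusted p = 0.00959) and -2.38 at day 8 (SE 0.42, adjusted p = 0.000627). The antisense gene Hoxb3os overlaps 52.9% of its exon length. Hoxb5 (ENSMUSG00000038700) was 2.18, 1.78 and 2.10 CPM at day 0, 0.793, 0.980 and 0.591 CPM at day 4 and 0.416, 0.339 and 0.350 CPM at day 8, with no overlap between days. It was 5.43-fold lower at day 8 (log2 fold change -2.44, SE 0.35, adjusted p = 0.000165), and the day 4 value was -1.35 (SE 0.33, adjusted p = 0.00559).

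Hoxb2 (ENSMUSG00000075588), a gene best known for hindbrain patterning, was lower at day 4 alone. It was 2.51, 3.37 and 2.37 CPM at day 0, 0.835, 1.34 and 0.827 CPM at day 4 and 2.67, 2.67 and 2.07 CPM at day 8. The day 4 libraries lay below all others, and day 0 and day 8 overlapped. The log2 fold change was -1.45 at day 4 (SE 0.32, adjusted p = 0.00290) and -0.15 at day 8 (95% interval -0.81 to 0.51, adjusted p = 0.674). From day 4 to day 8 it rose 2.45-fold (log2 1.29, SE 0.32, adjusted p = 0.0169). That rise missed the threshold without day 4 replicate 3 (adjusted p = 0.0633) and in a fit of those days alone (0.0544). Hoxb2 shares 27.3% of its exon length with genes on the opposite strand.

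Hoxb8 and Hoxb6 were lower at day 8 than on both earlier days. Hoxb8 (ENSMUSG00000056648) was 18.6, 20.4 and 19.0 CPM at day 0, 27.2, 19.7 and 31.1 CPM at day 4 and 8.67, 11.7 and 9.92 CPM at day 8. The day 8 libraries lay below all others. It fell by 0.93 on the log2 scale from day 0 to day 8 (SE 0.19, adjusted p = 0.00142) and was 2.57-fold lower at day 8 than at day 4 (-1.36, SE 0.19, adjusted p = 0.00151). At day 4 its value against day 0 was 0.43 (SE 0.19, adjusted p = 0.0722), and without day 4 replicate 2 it was 0.60 (adjusted p = 0.00588). Hoxb6 (ENSMUSG00000000690) was 7.79, 9.42 and 7.43 CPM at day 0, 9.56, 9 and 9.41 CPM at day 4 and 5.14, 3.69 and 5.78 CPM at day 8, again with day 8 below all other libraries. On the log2 scale the change was -0.75 from day 0 to day 8 (SE 0.21, adjusted p = 0.00873) and -0.94 from day 4 to day 8 (SE 0.21, adjusted p = 0.0115).

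Hoxb7 (ENSMUSG00000038721) and Hoxb4 (ENSMUSG00000038692) moved little. Hoxb7 was 12.3, 14.4 and 15.9 CPM at day 0, 11, 9.58 and 10.3 CPM at day 4 and 8.60, 11.3 and 11.1 CPM at day 8, with every later library below day 0. Its log2 fold change was -0.46 on both days (SE 0.17, adjusted p = 0.0437 at day 4 and 0.0395 at day 8). The day 4 call was lost without day 0 replicate 2 (0.101) or 3 (0.153), day 4 replicate 1 (0.0607), 2 (0.0789) or 3 (0.104), or day 8 replicate 3 (0.0573). The day 8 call was lost without day 0 replicate 2 (0.0837) or 3 (0.129), day 4 replicate 3 (0.0571), or day 8 replicate 1 (0.119) or 3 (0.0557). Hoxb4, a gene known in blood stem cell expansion, was 12.3 ± 0.969, 15.2 ± 2.91 and 12.7 ± 1.66 CPM over the 3 days (SD, n = 3). The log2 difference was 0.30 at day 4 (adjusted p = 0.183) and 0.04 at day 8 (95% interval -0.36 to 0.44, adjusted p = 0.846). Without day 4 replicate 2 the day 4 value of Hoxb4 was 0.43 (adjusted p = 0.0444).

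In HoxC the highest member, Hoxc10, fell by little and evenly. Hoxc10 (ENSMUSG00000022484), a posterior gene known in spinal cord and limb patterning and as a mark of subcutaneous fat, was 93.5, 101 and 95.2 CPM at day 0, 65.4, 70.3 and 71.9 CPM at day 4 and 65.8, 69.1 and 62.7 CPM at day 8. The day 4 and day 8 libraries lay below day 0 and overlapped each other. It was 1.39-fold lower at day 4 (log2 fold change -0.48, SE 0.11, adjusted p = 0.00373) and 1.46-fold lower at day 8 (-0.55, SE 0.11, adjusted p = 0.00122). From day 4 to day 8 the difference was -0.07 (95% interval -0.31 to 0.17, adjusted p = 0.658).

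Hoxc6, Hoxc8 and Hoxc9, thoracic-level genes, were the other abundant HoxC members. Hoxc6 (ENSMUSG00000001661) was 48.8, 56.8 and 56.9 CPM at day 0, 27.5, 38.6 and 31.5 CPM at day 4 and 24.3, 25.5 and 23.9 CPM at day 8, with no overlap between days. It fell by 0.73 on the log2 scale at day 4 (SE 0.15, adjusted p = 0.00167) and was 2.20-fold lower at day 8 (-1.14, SE 0.15, adjusted p = 7.51e-05). Hoxc8 (ENSMUSG00000001657), a gene known in white fat precursors, was 44.6, 37.3 and 36.9 CPM at day 0, 37.3, 30.0 and 36.7 CPM at day 4 and 28.0, 21.6 and 26.8 CPM at day 8. Its day 8 libraries lay below all others. Its log2 fold change was -0.19 at day 4 (adjusted p = 0.305) and -0.64 at day 8 (SE 0.15, adjusted p = 0.00386). Hoxc9 (ENSMUSG00000036139), a gene used as a marker of white and beige fat, was 24.6, 34.0 and 31.9 CPM at day 0, 19.7, 30.7 and 23.1 CPM at day 4 and 15.0, 20.7 and 14.8 CPM at day 8. Day 8 lay below day 0 and overlapped day 4. In log2 terms the change was -0.30 at day 4 (adjusted p = 0.244; -0.50 and 0.0431 without day 4 replicate 2) and -0.84 at day 8 (SE 0.21, adjusted p = 0.00496). From day 4 to day 8, Hoxc8 differed by -0.45 (adjusted p = 0.0589; 0.0187 without day 4 replicate 2), Hoxc9 by -0.54 (0.0860; 0.0393 without day 4 replicate 1) and Hoxc6 by -0.41 (0.0682; 0.0262 without day 4 replicate 1).

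The most posterior HoxC genes fell further than Hoxc10 in fitted size, though the differences between genes were not tested. Hoxc13 (ENSMUSG00000001655), a gene required in hair and nails, was 12.3, 10.7 and 8.88 CPM at day 0, 4.05, 11 and 5.32 CPM at day 4 and 4.41, 4.93 and 4.03 CPM at day 8. Day 4 replicate 2 lay within the day 0 libraries, and the others of day 4 and all of day 8 lay below them. The log2 fold change was -0.64 at day 4 (SE 0.33, adjusted p = 0.120), -1.18 without day 4 replicate 2 (adjusted p = 0.000922), and -1.25 at day 8 (SE 0.33, adjusted p = 0.00707). Hoxc12 (ENSMUSG00000050328) was 2.18, 1.78 and 1.42 CPM at day 0, 0.459, 1.78 and 0.591 CPM at day 4 and 0.347, 0.339 and 0.175 CPM at day 8. Day 4 replicate 2 again lay within day 0, and day 8 lay below all other libraries. It was 6.19-fold lower at day 8 (log2 fold change -2.63, SE 0.56, adjusted p = 0.00201). Its day 4 value was -0.92 (SE 0.51, adjusted p = 0.148), and -1.76 without day 4 replicate 2 (adjusted p = 0.00574). Hoxc11 (ENSMUSG00000001656) was 6.66, 8.00 and 7.84 CPM at day 0, 2.09, 5.15 and 4.41 CPM at day 4 and 2.85, 4.59 and 3.05 CPM at day 8, with every later library below day 0. Its log2 fold change was -0.95 at day 4 (SE 0.33, adjusted p = 0.0301) and -1.10 at day 8 (SE 0.33, adjusted p = 0.0127). The day 4 call was lost without day 0 replicate 2 (0.0772) or 3 (0.0731), or day 4 replicate 1 (0.0723) or 3 (0.0533).

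Hoxc4 and Hoxc5, at the anterior end of the cluster, passed narrowly. Hoxc4 (ENSMUSG00000075394) was 4.29, 5.60 and 4.56 CPM at day 0, 2.13, 3.05 and 3.31 CPM at day 4 and 2.91, 2.98 and 2.98 CPM at day 8, with every later library below day 0. The log2 fold change came to -0.76 at day 4 (SE 0.25, adjusted p = 0.0224) and -0.70 at day 8 (adjusted p = 0.0273). The day 4 call was lost without day 0 replicate 2 (0.0916) or day 4 replicate 1 (0.0773), and the day 8 call without day 0 replicate 2 (0.103) or 3 (0.0504), or day 8 replicate 1 (0.0580), 2 (0.0551) or 3 (0.0619). Hoxc5 (ENSMUSG00000022485) was 4.61, 4.44 and 3.76 CPM at day 0, 3.05, 2.32 and 3.43 CPM at day 4 and 2.60, 2.90 and 2.98 CPM at day 8. Its later libraries also lay below day 0. Its log2 fold change was -0.54 at day 4 (adjusted p = 0.0769) and -0.59 at day 8 (SE 0.24, adjusted p = 0.0494). The day 8 call of Hoxc5 was lost on leaving out any 1 library other than day 4 replicate 2, with adjusted p from 0.0574 to 0.129.

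In HoxD the measured pair fell at day 4. Hoxd8 (ENSMUSG00000027102) was 11.9, 8.94 and 11.2 CPM at day 0, 6.76, 4.06 and 5.83 CPM at day 4 and 9.40, 6.74 and 8.03 CPM at day 8. The day 4 libraries lay below day 0, and day 8 overlapped day 0. The fitted log2 change was -0.95 at day 4 (SE 0.23, adjusted p = 0.00578) and -0.41 at day 8 (SE 0.23, adjusted p = 0.143). With total-count scaling the day 8 value passed (adjusted p = 0.0123). Hoxd9 (ENSMUSG00000043342), a limb and lumbar gene, was 1.89, 2.07 and 2.01 CPM at day 0, 0.459, 0.435 and 0.551 CPM at day 4 and 0.763, 0.452 and 1.02 CPM at day 8, with every later library below day 0. It was 4.10-fold lower at day 4 (log2 fold change -2.04, SE 0.38, adjusted p = 0.00108), and the day 8 value was -1.41 (SE 0.36, adjusted p = 0.00561).

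Seen over both comparisons with day 0, 10 members were lower on both days (Hoxa6, Hoxb3, Hoxb5, Hoxb7, Hoxb9, Hoxc4, Hoxc6, Hoxc10, Hoxc11 and Hoxd9) and 7 passed at day 8 alone, all lower (Hoxb6, Hoxb8, Hoxc5, Hoxc8, Hoxc9, Hoxc12 and Hoxc13). Another 2, Hoxb2 and Hoxd8, were lower at day 4 alone. Hoxa4 and Hoxa9 were higher on both days and Hoxa7 at day 4 alone. The remaining 7 passed at neither, among them Hoxa3, Hoxa10 and Hoxb4. With total-count scaling in edgeR, Hoxc5, Hoxc8, Hoxc9 and Hoxc13 were lower at day 4 as well (adjusted p = 0.00855, 0.0158, 0.0332 and 0.0418). Hoxc5 also passed at day 4 with DESeq2 (adjusted p = 0.0499). Passing on one day and not the other does not show that the days differ; between day 4 and day 8 the genes past the threshold were Hoxb2, Hoxa9, Hoxb6 and Hoxb8.

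Most TALE cofactors, which bind DNA with Hox proteins, fell, and Pbx2 rose. All 9 were tested. At day 4, 1 was higher and 6 lower, at day 8, 1 higher and 7 lower, and between day 4 and day 8, 1 was higher. The lower share was 66.7% and 77.8% at day 4 and day 8, against 26% and 29.9% of all genes tested, and the higher share 11.1% on both days, against 28.6% and 33.5%. Pbx3 averaged 28.2 ± 5.37 CPM on day 0 and 7.02 ± 1.08 CPM on day 8 (SD, n = 3; log2 fold change -2.01, adjusted p = 8.04e-06). Pbx2 went the other way, from 40.9 ± 1.78 to 55.3 ± 3.97 and 89.1 ± 9.76 CPM (day 8 log2 1.12, SE 0.13, adjusted p = 2.95e-05). Its day 4 rise of 0.43 (adjusted p = 0.0128) was lost without day 0 replicate 3 (0.0566) and with total-count scaling (0.10, adjusted p = 0.436). Between day 4 and day 8 it rose by 0.69 (adjusted p = 0.00447). Meis1, Meis2 and Meis3 were lower at day 8 by log2 fold changes of -1.65, -1.04 and -1.39 (adjusted p = 2.95e-05, 0.00122 and 9.79e-05), and Pknox1 by -0.94 (adjusted p = 0.000528). Pknox2 was -0.99 (adjusted p = 0.0272), a call lost without replicate 2 (0.0624) or 3 (0.0620) of day 0 or replicate 1 of day 8 (0.102). Pbx4, the lowest at 1.46 CPM at day 0, did not pass at day 8 (adjusted p = 0.543).

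Long noncoding RNAs of the clusters moved in both directions, though the 1 lower call was lost in several settings. Of 11 listed, 6 were tested: 1 was higher at day 4, 2 were higher and 1 lower at day 8, and none passed between day 4 and day 8 with edgeR (0 at an unadjusted p under 0.05, and 0 with DESeq2). The higher share was 16.7% at day 4 and 33.3% at day 8, against 28.6% and 33.5% of all genes tested. The lower share was 0% and 16.7%, against 26% and 29.9%. Without day 4 replicate 2, of 7 tested, 2 were higher and 1 lower at day 4, and 2 higher and 3 lower at day 8. Hotairm1, which lies beside Hoxa2 in HoxA, was 1.70, 2.17 and 1.78 CPM at day 0, 8.55, 3.52 and 5.67 CPM at day 4 and 4.37, 9.34 and 6.69 CPM at day 8, with every later library above day 0. It rose by 1.65 on the log2 scale at day 4 (SE 0.37, adjusted p = 0.00337) and 1.85 at day 8 (SE 0.37, adjusted p = 0.00127), while Hoxa2 passed on neither day. Hoxb3os was 0.400 CPM at day 0 and 1.17 CPM at day 8 (log2 1.55, adjusted p = 0.0181), a call lost without replicate 1 (0.0719) or 3 (0.0689) of day 0 or replicate 3 of day 8 (0.0581). Hoxaas2 was 0.344 CPM at day 0 and 0.0968 CPM at day 8 (log2 -1.80, adjusted p = 0.0403). That call was lost without any 1 of the day 0 libraries (0.0761 to 0.0871) and without day 8 replicate 1 (0.130) or 3 (0.0854). It was also lost with no filter on low counts (0.109) and with DESeq2 (0.0619), which left 2 higher and 0 lower at day 8. Hoxaas3, Hoxb5os and Hoxd3os1 did not pass. On leaving out day 4 replicate 2, Hoxaas3 passed at day 4 (log2 1.54, adjusted p = 0.0206), as did Hoxb5os in the other direction (log2 -3.03, adjusted p = 0.0172). Hoxb5os also passed at day 8 without that library (adjusted p = 0.0465), without day 8 replicate 3 (0.0307) and in a fit of those days alone (0.0448). Hotair, the HoxC antisense RNA of the posterior cluster, had 39 counts over the day 0 libraries, 6 over day 4 and 5 over day 8. Hoxa11os had 27, 20 and 5 counts, 19 of the 20 in day 4 replicate 2, Haglr had 5, 1 and 7, Halr1 had 4, 0 and 0, and Hottip had none. Gm15050, an antisense gene in HoxA beside Hoxa3, was outside the lists and chosen after its values were seen. It was 2.01 ± 0.251 CPM at day 0 and 4.30 ± 0.571 CPM at day 8 (SD, n = 3; log2 1.10, SE 0.25, adjusted p = 0.00314).

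Genes of the Polycomb and MLL complexes, which silence Hox genes and keep them active, moved in both directions. Of 27 Polycomb genes, all tested, 4 were higher and 10 lower at day 4 (7 and 9 without day 4 replicate 2), 10 higher and 9 lower at day 8, and 7 higher and none lower at day 8 against day 4 with edgeR (7 and 2 with DESeq2, and 10 at an unadjusted p under 0.05). With total-count scaling the split was 2 higher and 14 lower at day 4 and 7 higher and 12 lower at day 8. The shares were 14.8% higher and 37.0% lower at day 4, against 28.6% and 26% of all genes, and 37.0% and 33.3% at day 8, near the 33.5% and 29.9% of all genes. Rybp, a subunit of Polycomb complex 1, went from 19.3 to 2.68 CPM (day 8 log2 -2.84, adjusted p = 7.13e-05). Pcgf5, another subunit of that complex, went from 6.59 to 31.6 CPM (2.26, adjusted p = 6.18e-05) and Cbx7, a reader of the H3K27 methyl mark, from 3.30 to 14.3 CPM (2.11, adjusted p = 0.000178). Jarid2, which binds Polycomb complex 2, went from 9.24 to 29.5 CPM (1.67, adjusted p = 8.31e-05). Of 12 MLL complex genes and H3K27 demethylases, 1 was higher and 3 lower at day 4, 2 higher and 4 lower at day 8, and 2 lower at day 8 against day 4. The lower share was 25% and 33.3% on the 2 days, near that of all genes, and the higher share 8.33% and 16.7%. With total-count scaling 1 was higher and 6 lower on both days. Kmt2a, which encodes the methyltransferase MLL1, was 23.3 ± 2.36 CPM at day 0, 9.60 ± 2.57 CPM at day 4 and 5.17 ± 1.31 CPM at day 8 (SD, n = 3; day 8 log2 -2.17, SE 0.24, adjusted p = 3.08e-05). Dpy30, a shared subunit of these complexes, went from 18.6 to 48.9 CPM (1.39, adjusted p = 3.71e-05). Kmt2d, another methyltransferase of the family, went from 31.5 to 14.1 CPM (-1.16, adjusted p = 0.00248) and the subunit Ash2l from 43.3 to 29.1 CPM (-0.57, adjusted p = 0.00271). Histone marks were not measured.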

How the data were processed

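Total RNA of 9 libraries (3 each at day 0, 4 and 8) was sequenced with a stranded total RNA kit, per the labels' protocols. The authors deposited raw counts of reads per Ensembl gene, without normalization. Per the submitters' processing notes, HISAT2 (genome build GRCm39) aligned the reads and featureCounts assigned them to genes. Tool versions, the strand setting and the annotation are not given in the sources used here. Antisense partners and overlapping genes may therefore share reads. Lengths, overlaps and 3′ UTRs came from GENCODE M21 (another build) and sequences from RefSeq.

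Counts were fitted in R 4.3.3 with edgeR 4.0.16: filterByExpr (minimum count 10, minimum total 15) kept 14649 genes, and 1 quasi-likelihood fit of all 9 libraries used TMM scaling, no covariates and 6 residual degrees of freedom (biological coefficient of variation 22.7%). The fit was tested on simulated data. Alternatives were total counts, RLE factors, DESeq2 1.42.0, no filter, a replicate block, fits of 2 days, and each library left out. Replicate pairs differed by more than sampling noise (chi-square per degree of freedom 16.7 to 250).

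Members and lists were chosen with earlier results of these data known. The lists were TALE cofactors, Hox cluster long noncoding RNAs and microRNAs, Polycomb, MLL and H3K27 demethylases, regional identity factors, ParaHox and Evx, flanking genes, the retinoic acid pathway and markers of 11 cell types. Every Hox, cofactor and listed long noncoding RNA could be named, and of the other lists at most 4 genes past the threshold with the largest change at day 8. Some members and listed genes are not reported here. Intervals of fold changes come from the fit and cover the spread between libraries. Floors cover counting error only.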

Additional observations from a re-analysis of the deposited data

How the results depend on the processing

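Without a replicate block 15 Hox genes changed from day 0 to day 4, 19 from day 0 to day 8 and 4 from day 4 to day 8, the order kept below. With the replicate number as a block the counts were 15, 18 and 7. The block lost Hoxc5 at day 8 (adjusted p = 0.0629) and added Hoxc8 (0.0345), Hoxc9 (0.0282) and Hoxd8 (0.0455) between day 4 and day 8. Same-numbered libraries did not deviate together throughout (correlations of deviations from -0.126 to 0.273), so the numbers were not taken to pair the samples. As a hint from the data, in 11 of 18 pairings of a library with another day, its own number was the best correlated there. DESeq2 called 16, 19 and 8 Hox genes, total-count scaling 19, 23 and 4, no filter 14, 16 and 5, and fits of the days compared alone 15, 20 and 3. Leaving out 1 library gave 11 to 19, 16 to 19 and 2 to 8; the last was 8 on dropping day 4 replicate 1 and 2 on dropping day 4 replicate 3. Over all genes, day 8 against day 4 had 3285 calls, 1901 in a fit of those days alone and 1894 to 4185 with 1 library left out; it was 1894 without day 4 replicate 3, 2107 without day 8 replicate 1 and 2012 without day 8 replicate 2. The split of all genes at day 4 moved from 4192 higher and 3806 lower to 3073 and 5631 with total-count scaling, and at day 8 from 4913 and 4377 to 3632 and 6044. The cause was not tested.

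Over the members and alternatives, 404 of 435 values kept their direction and their side of the threshold in day 4 against day 0, 405 of 435 in day 8 against day 0 and 416 of 434 in day 8 against day 4, apart from 10, 7 and 21 values that changed sign without a call. No called value changed sign. Of those 10, 5 arose with total-count scaling (Hoxa2, Hoxa10, Hoxa11, Hoxb4 and Hoxb6). Counted per kb of exon, the share of HoxA was 9.65%, 20.1% and 19.6% at days 0, 4 and 8, that of HoxB 30.9%, 24.2% and 20.9%, and that of HoxC 57%, 54.1% and 56.6%. Members with few counts, such as Hoxa6 and Hoxc12, are limited by depth.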

Other observations

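Among other regional factors of these cells, more fell than rose. Of 31 transcription factors outside the Hox clusters that mark body region, 26 were tested; 2 were higher and 7 lower at day 4, 1 higher and 13 lower at day 8, and 3 higher and 6 lower at day 8 against day 4. The lower share was 26.9% at day 4, near the 26% of all genes tested, and 50% at day 8, against 29.9%, and the higher share was 7.69% and 3.85%, against 28.6% and 33.5%. Without day 4 replicate 2, 1 was higher and 12 lower of 28 tested at day 4, and 1 higher and 5 lower at day 8 against day 4. With total-count scaling 1 was higher and 13 lower at day 4. Tbx15, a mark of subcutaneous fat, was 87.4 ± 4.07 CPM at day 0 and 30.0 ± 5.00 CPM at day 8 (SD, n = 3; log2 fold change -1.54, adjusted p = 3.55e-05, edgeR). Emx2 went from 33.1 to 10.3 CPM (-1.69, adjusted p = 4.08e-05) and Prrx2 from 79.6 to 21.3 CPM (-1.90, adjusted p = 0.00225). Hand2 went from 1.38 to 0.340 CPM (-2.01, adjusted p = 0.0152), a call lost without day 0 replicate 2 (0.0529) or day 8 replicate 1 (0.0573). Of 8 ParaHox and Evx genes, which are relatives of the Hox genes, 7 had no count and none could be tested.

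Retinoic acid, made from vitamin A, is a classical inducer of Hox genes. Of 12 genes of its pathway 10 were tested; 1 was higher and 5 lower at day 4, 1 higher and 6 lower at day 8, and 2 lower at day 8 against day 4. That is 50% and 60% lower at day 4 and day 8, against 26% and 29.9% of all genes tested. The higher share was 10% on both days, against 28.6% and 33.5%. At day 8 against day 4, 20% were lower and 0% higher, against 10.8% and 11.7%. Without day 4 replicate 2, the split at day 8 against day 4 was 2 higher and 3 lower. Crabp2, a carrier of retinoic acid, stood at 15.7 CPM before induction and 0.152 CPM at day 8 (log2 fold change -6.63, adjusted p = 3.73e-05), and Crabp1 from 12 to 0.969 CPM (-3.63, adjusted p = 5.65e-05). Aldh1a2, an enzyme that makes retinoic acid, went from 63.8 ± 38.9 to 0.750 CPM (-6.40, adjusted p = 2.82e-05). The receptor Rarg went from 145 to 28.7 CPM (-2.34, adjusted p = 1.22e-05). Of 17 genes that flank the clusters 14 were tested; 5 were higher and 4 lower at day 4, 6 higher and 4 lower at day 8, and 1 lower at day 8 against day 4. Their shares, 35.7% and 42.9% higher and 28.6% lower on both days, were near those of all genes. With total-count scaling 4 were higher and 8 lower at day 8. Hibadh, a valine breakdown enzyme beyond the 5′ end of HoxA, went from 65.9 to 469 CPM (2.83, adjusted p = 1.27e-06), and Snx10 at the other side from 31.8 to 109 CPM (1.78, adjusted p = 0.000472). Mtx2, beside HoxD, went from 41.9 to 104 CPM (1.31, adjusted p = 8.01e-05) and Hnrnpa1, beside HoxC, from 187 to 65.1 CPM (-1.52, adjusted p = 0.000191).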
